A study of Mus musculus with 6 samples.

Results

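Endothelial cells, which line all blood vessels, share a set of genes whose products hold the vessel wall together, receive signals from the blood and from neighbouring cells, and regulate flow. This set of pan-endothelial genes was followed in the developing mouse retina. It comprised 38 listed genes for surface, signalling and secreted proteins of endothelium, with transcription factors, vascular endothelial growth factor (VEGF) receptors and transporters left out. Of the 38 genes, 36 had a probe under their symbol in the array annotation, and Exoc3l2 and Ly6a were not analysed here. A gene was taken as expressed when a probe had a detection p under 0.05, against negative control beads, on at least 3 of the 6 arrays. On that rule 26 of the 36 genes were expressed, out of 11097 genes with an expressed probe in the whole series. These 26 genes had 34 expressed probes of the 62 member probes on the array, and where a gene had several, the brightest one on average stands for it.

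Retinal RNA came from 3 mice labelled Lrp5-/- (strain B6.129P2-Lrp5tm1Dgen/J) and from 3 wild-type (WT) mice of strain C57BL/6J, all at postnatal day 8, with 1 Illumina Mouse-WG6 array for each mouse. Both strains are stocks of the Jackson Laboratory, and the null allele is present in every cell of the mouse. The mutants and the WT mice were not described as littermates, so genotype, residual strain background and stock cannot be told apart. Lrp5 is a co-receptor for Wnt ligands and for Norrin, and the comparison addressed how its loss changes gene expression in the retina while the retinal vessels are still growing. No detected probe of the targeted gene was lower on the arrays labelled Lrp5-/-. Of 4 Lrp5 probes, 3 were undetected on all 6 arrays, and the remaining probe gave 99.2, 91.3 and 95.7 on the arrays labelled Lrp5-/- against 46.8, 59.5 and 56.1 on WT arrays (log2 fold change 0.82, SE 0.11, adjusted p = 0.0127, limma). This probe was detected on all 3 arrays labelled Lrp5-/- and on 1 WT array. The arrays labelled Lrp5-/- alone took it past the detection rule. Its position was not analysed here, so whether it lies inside the deletion and can test the label is open. The samples are therefore called retinas or arrays labelled Lrp5-/-, with mutant as the short form of that label, and every direction below rests on the labels.

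Endothelium is a small fraction of the retina. At this age the superficial vessel plexus is spreading over the retina and sprouts begin to enter the deeper layers, while the hyaloid vessels of the vitreous regress. Vessels are held together by VE-cadherin, PECAM-1 and other junction proteins. Growth and quiescence are tuned by the angiopoietin receptor Tie2 (encoded by Tek), by the adrenomedullin receptor and by the phosphatase VE-PTP (Ptprb). Many endothelial genes carry binding sites for ETS family transcription factors near their start.

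Array brightness differed most among the WT arrays. The mean signal before normalization was 313 to 319 on the arrays labelled Lrp5-/- and 199.97, 431 and 304 in WT replicates 1, 2 and 3, with 18167 probes detected on WT replicate 1 and 20286 to 21388 on each other array. All values below are the authors' normalized signals on a linear scale with the background left in. The lowest signal of any detected probe was 58.8 to 69.8 across arrays, so genes near that level have understated fold changes. Photoreceptor genes, which mark retina, were detected throughout, with Crx, a homeobox factor of photoreceptors, at 14938.3 to 15310.5 on the arrays labelled Lrp5-/- and 13970.4 to 16801.4 on WT arrays. With 3 arrays against 3, an exact permutation test of a single gene cannot go below p = 0.1, so p-values come from a limma fit over all 20721 tested probes with Benjamini-Hochberg adjustment.

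The start regions of 4 of these genes are shown for the direction of their signals and because all 4 hold the ETS core in their first 250 bases upstream. For Adgrl4, Robo4 and Nostrin every array labelled Lrp5-/- lay below every WT array, against 4.96% of all tested probes. For Emcn every such array lay above, against 5.74% of all tested probes. Of the 4, only Adgrl4 passed an adjusted p under 0.05 (limma). Nostrin passed the detection rule through the WT arrays. The sequences are from RefSeq (GRCm38.p6), 5′ to 3′ on the gene's strand and ending at the base before the gene start, with ETS matches (AGGAAG or CGGAAG on either strand) in capitals. They lie at chr3:151437632-151437881 (Adgrl4), chr9:37401722-37401971 (Robo4), chr2:69135550-69135799 (Nostrin) and chr3:137340828-137341077 (Emcn), all on the plus strand.
Adgrl4: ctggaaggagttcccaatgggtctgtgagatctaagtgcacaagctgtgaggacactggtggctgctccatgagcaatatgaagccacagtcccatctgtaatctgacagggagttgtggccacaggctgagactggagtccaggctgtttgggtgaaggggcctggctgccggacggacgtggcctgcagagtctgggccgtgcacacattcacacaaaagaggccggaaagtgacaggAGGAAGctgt
Robo4: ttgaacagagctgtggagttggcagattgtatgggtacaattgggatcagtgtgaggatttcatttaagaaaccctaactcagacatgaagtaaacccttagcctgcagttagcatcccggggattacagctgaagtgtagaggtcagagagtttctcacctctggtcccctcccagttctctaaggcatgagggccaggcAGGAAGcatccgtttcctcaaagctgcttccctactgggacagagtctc
Nostrin: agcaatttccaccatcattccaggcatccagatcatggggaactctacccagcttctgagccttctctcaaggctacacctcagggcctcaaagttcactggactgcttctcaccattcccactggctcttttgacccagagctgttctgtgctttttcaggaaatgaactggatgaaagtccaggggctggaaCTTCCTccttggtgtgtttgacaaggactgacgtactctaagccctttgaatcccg
Emcn: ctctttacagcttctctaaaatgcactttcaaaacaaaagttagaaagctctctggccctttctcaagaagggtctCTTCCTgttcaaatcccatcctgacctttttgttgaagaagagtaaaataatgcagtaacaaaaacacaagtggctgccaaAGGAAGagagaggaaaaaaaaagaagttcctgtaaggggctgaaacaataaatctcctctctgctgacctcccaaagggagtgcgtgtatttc
The ETS match of Adgrl4 starts 10 bases before the gene start, that of Robo4 49 bases before and that of Nostrin 56 bases before. Emcn has 2 matches, at 174 and 93 bases. Start regions were found for 22 of the 38 genes, with 25 windows among them because Egfl7 has 3 and Ly6c1 has 2. An ETS match was present in 17 of the 25 windows, belonging to 16 genes, against 39.2% of all 32851 RefSeq start regions of the same length. A SOX match (ACAAAG or ACAATG on either strand) was present in 8 of the 25 windows against 25.2% of all, a TCF/LEF match (CTTTGA) in 3 of 25 against 13.8% and a FOX match (TGTTTA) in 2 of 25 against 12% of all. The TCF/LEF letters differ from the reverse complement of the first SOX word only in their last base. The 3 genes with TCF/LEF letters were Robo4, Egfl7 and Nostrin. A match of letters is a description of the sequence, not a measured binding site.

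As a group, the pan-endothelial genes had lower signals on the arrays labelled Lrp5-/- than on WT arrays. Of the 26 expressed genes, 24 had a negative log2 fold change and 2 a positive one (Emcn and Shank3). The median log2 fold change was -0.39, with a range from -1.27 to 0.25, while the median over all 20721 tested probes was 0.0001. At an adjusted p under 0.05, 3 genes fell (Adgrl4, Arap3 and Cd93) and 0 rose, against 0.0869% of all tested probes called lower and 0.0290% called higher. At the study's kind of threshold, an unadjusted p under 0.05 and a change of at least 1.3-fold, 14 genes were lower and 0 higher, against 0.569% and 0.261% of all tested probes. An unadjusted p under 0.05 alone was met by 20 genes in the lower direction and 1 in the higher, against 2.43% of all tested probes called lower and 2.43% called higher. In 18 of the 26 genes every array labelled Lrp5-/- lay below every WT array, in 1 every such array lay above, and in 7 the groups overlapped, against 4.96% of all tested probes with all mutant arrays below and 5.74% with all above. A total of 22 of the genes were detected on all 6 arrays. Those did not pass the detection rule through one group, and their median was -0.37. Of them, 10 were lower at an unadjusted p under 0.05 with at least 1.3-fold, and 15 had every mutant array below every WT array. Adgrl4, Arap3 and Cd93 fell at an adjusted p under 0.05. The shares over all probes detected on all 6 arrays are not given, so these counts have no background beside them. The counts moved with the scaling of the arrays. Scaled to a common median, 6 of the 26 genes were lower at an unadjusted p under 0.05 with 1.3-fold. On that scale 5 had every mutant array below every WT array. Without normalization both counts were 5, and with 50 added to each signal the first was 8. The shares of all tested probes are not given for these settings, so these counts have no background beside them. The median of all tested probes was 0.12 after median scaling and 0.04 without normalization.

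**Figure D1:**
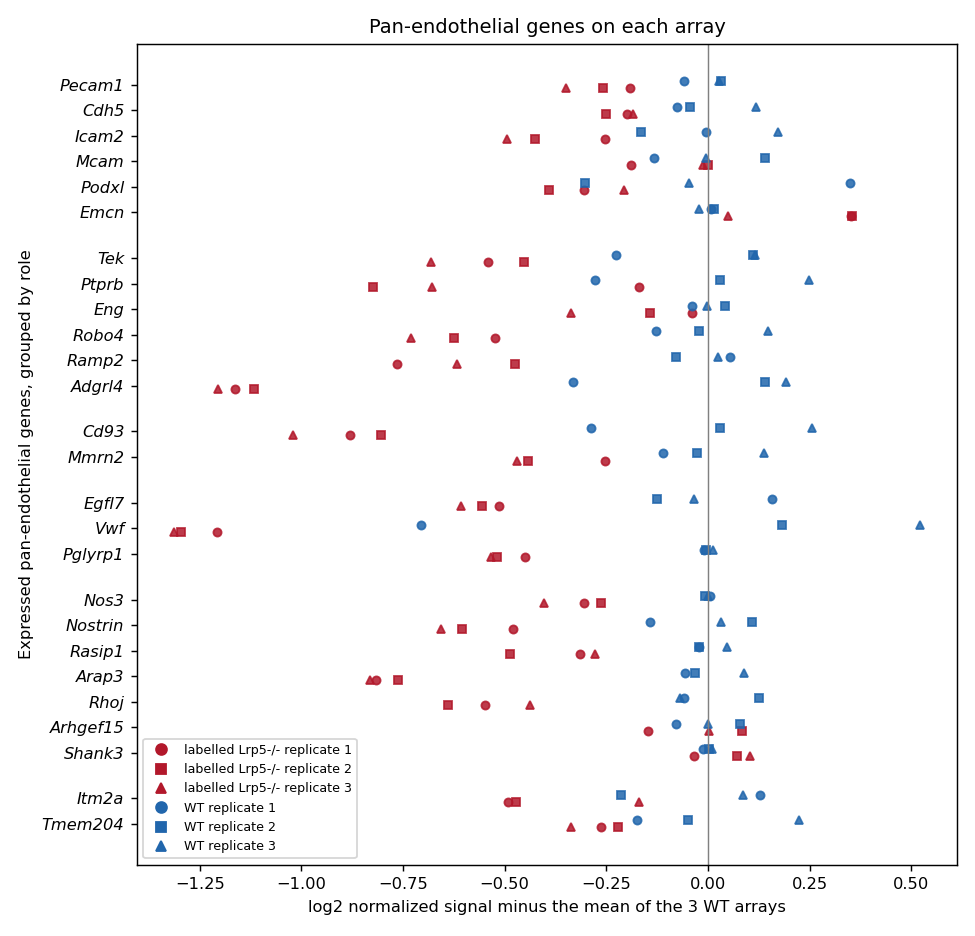
Log2 normalized signal of each expressed pan-endothelial gene on each array, as the difference from the mean of the 3 WT arrays (x axis), with genes grouped by role (y axis). Red symbols are retinas labelled Lrp5-/- and blue symbols WT retinas, with the symbol shape giving the replicate. Red lies left of blue without overlap in 18 genes and right of it only in Emcn.

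**Figure D2:**
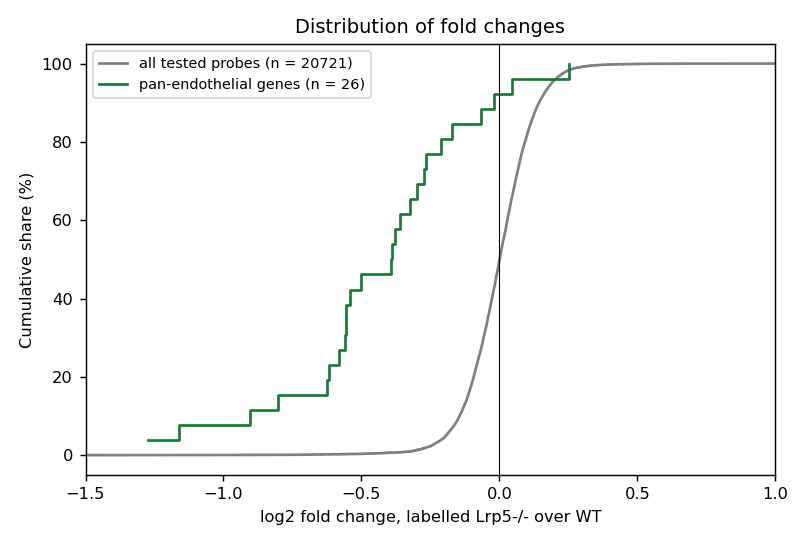
Cumulative share (%) of log2 fold changes (retinas labelled Lrp5-/- over WT) for the 26 expressed pan-endothelial genes in green and all 20721 tested probes in grey. The green curve lies to the left, with medians of -0.39 and 0.0001. The ends of the x axis leave out a few probes.

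Since whole retinas were measured, fewer endothelial cells and less RNA of these genes per cell cannot be told apart. The summed signal of the 26 genes was 4024.2 to 4070.5 on the arrays labelled Lrp5-/- and 5257.4 to 5683.1 on WT arrays. The study itself lists 7 of the 26 genes among those it found regulated on these arrays (Vwf, Cd93, Tek, Icam2, Ramp2, Egfl7 and Adgrl4), so these are not independent evidence of a direction. Among the other 19, only Arap3 fell at an adjusted p under 0.05, and the median log2 fold change was -0.32. Of these 19, 7 were lower at the unadjusted threshold with 1.3-fold, against 0.569% of all tested probes. In 11 every mutant array lay below every WT array, against 4.96% of all tested probes. Ptprb, Pglyrp1 and Nostrin, among the 7, were detected on all 3 WT arrays but on at most 1 mutant array. The WT arrays alone took them past the detection rule.

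By count, receptors and the receptor phosphatase made up the role group with the most members past the 1.3-fold threshold. These were 5 of the 6 expressed genes, with a median log2 fold change of -0.59. By share, 2 of 2 in the group of Cd93 and Mmrn2 were past it, against 0.569% of all tested probes. All 3 secreted genes were past it too. Of these, Vwf and Pglyrp1 passed the detection rule through the WT arrays alone, so their direction was fixed by that rule. Ptprb, 1 of the 5 receptor genes, passed the detection rule through the WT arrays. Adgrl4, an orphan adhesion G-protein-coupled receptor also called ELTD1 and strongly enriched in endothelium, gave 76.4, 78.8 and 74.1 on the arrays labelled Lrp5-/- and 135.8, 188.4 and 195.5 on WT arrays. The mutant values lay within a few units of each other and well below the lowest WT value, which was WT replicate 1. Adgrl4 fell 2.24-fold (log2 fold change -1.16, SE 0.13, adjusted p = 0.00460, limma), and it was called in 5 of the 6 fits that left out 1 array.

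Ramp2, the accessory protein that turns the calcitonin receptor-like receptor into an adrenomedullin receptor, gave 243.3, 297.5 and 269.4 on the arrays labelled Lrp5-/- and 428.6, 391.3 and 420.4 on WT arrays. The groups did not overlap, and the log2 fold change was -0.62 (SE 0.10, adjusted p = 0.0533, limma). Calcrl, the receptor that Ramp2 escorts to the surface, was not detected, with 36.1 to 45.7 on the arrays labelled Lrp5-/- and 30.8 to 39.2 on WT arrays. Robo4, an endothelial member of the Roundabout receptors that stabilises vessels, gave 120.3, 112.2 and 104.2 on the arrays labelled Lrp5-/- and 158.4, 170.4 and 191.6 on WT arrays, again with no overlap. Its log2 fold change was -0.63 (SE 0.10, adjusted p = 0.0566, limma).

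The Tie system was measured through its receptors and its phosphatase. Tek, which encodes the angiopoietin receptor Tie2, gave 78.9, 83.9 and 71.6 on the arrays labelled Lrp5-/- and 98.1, 124 and 124.3 on WT arrays, so that the log2 fold change was -0.56 (SE 0.11, adjusted p = 0.161, limma). All Tek values of the mutants were below the WT values, with WT replicate 1 the nearest to them. Ptprb, which encodes VE-PTP, the phosphatase that acts on Tie2 and VE-cadherin, gave 81.7, 51.9 and 57.4 on the arrays labelled Lrp5-/- and 75.8, 93.8 and 109.2 on WT arrays. Here replicate 1 of the arrays labelled Lrp5-/- lay above WT replicate 1, so the groups overlapped, and the probe was detected on 1 of the 3 mutant arrays (log2 fold change -0.56, SE 0.17, adjusted p = 0.767, limma). Tie1, the orphan partner of Tie2, was not expressed on the detection rule and was not tested. Eng, the transforming growth factor co-receptor endoglin, ranged from 60.5 to 74.4 on the arrays labelled Lrp5-/- and from 74.4 to 78.8 on WT arrays, so that the log2 fold change was -0.17 and missed every threshold. S1pr1, a receptor for sphingosine-1-phosphate, was not expressed on the detection rule.

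**Figure D3:**
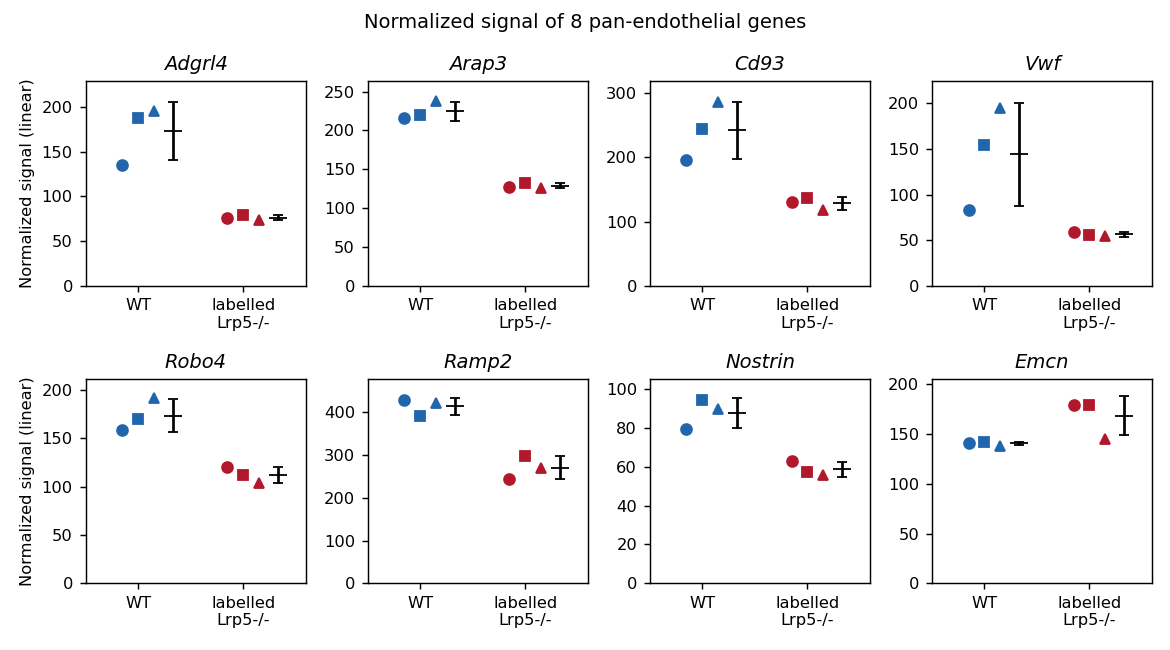
Normalized signal on a linear axis from 0 for 8 genes, with WT retinas in blue and retinas labelled Lrp5-/- in red, 1 symbol for each array (circle, square and triangle for replicates 1, 2 and 3) and the mean ± SD (n = 3) in black beside them. The first 7 genes have every red point below every blue one, and Emcn has every red point above, with its replicate 3 close to WT.

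Among the cell surface lectins, Cd93 is a C-type lectin domain receptor of sprouting endothelium, and Mmrn2 encodes multimerin 2, an extracellular matrix protein that binds Cd93 and its relative Clec14a. Cd93 gave 129.9, 137 and 117.9 on the arrays labelled Lrp5-/- and 196.1, 244.4 and 285.8 on WT arrays. The lowest WT value, of WT replicate 1, stood well above the highest mutant value, and Cd93 fell 1.87-fold (log2 fold change -0.90, SE 0.13, adjusted p = 0.0302, limma). A second Cd93 probe gave 90.1, 95 and 96.9 against 143.9, 152.8 and 181.4, a log2 fold change of -0.76 (SE 0.10, adjusted p = 0.0212, limma), so both probes of this gene passed. The Cd93 call was held in 1 of the 6 fits that left out 1 array, and it was lost with normexp background correction (adjusted p = 0.0548, limma) and with no filter on detection (adjusted p = 0.0629, limma). Mmrn2 gave 87.1, 76.4 and 74.9 on the arrays labelled Lrp5-/- and 96.1, 101.9 and 114.2 on WT arrays, without overlap but with an adjusted p of 0.502 (log2 fold change -0.39, limma). Clec14a was not expressed on the detection rule and was not tested.

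Of the 3 secreted products, Vwf and Pglyrp1 passed the detection rule through the WT arrays alone, so a lower signal on the mutant arrays was fixed by that rule, and Egfl7 was detected on all arrays. Vwf, which encodes von Willebrand factor, the large plasma protein that tethers platelets and is stored in endothelial granules, gave 58.7, 55.2 and 54.6 on the arrays labelled Lrp5-/- and 83.2, 154 and 194.8 on WT arrays. The probe was undetected on all 3 mutant arrays and detected on all 3 WT arrays, and WT replicate 1 was far below the other WT arrays. Vwf was at least 2.24-fold higher on WT arrays, where the dim group is set at the lowest signal of a detected probe or its own signal, whichever is higher, and the group means are taken as measured. The fitted log2 fold change of -1.27 (SE 0.24) did not pass (adjusted p = 0.100, limma). It passed without WT replicate 1 (-1.63, adjusted p = 3.48e-05) and missed in each of the 5 other fits that left out 1 array, with adjusted p-values of 0.303 to 0.518 and a log2 fold change of -1.01 without WT replicate 3. Megakaryocytes and platelets also make Vwf, and of 6 platelet markers Pf4, Ppbp, Itga2b, Gp9 and Gp6 were not expressed on the detection rule, and the 1 expressed had a log2 fold change of -0.05.

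Egfl7, a matrix protein secreted by endothelium that guides tube formation and whose gene hosts an intronic microRNA, gave 483.9, 470.1 and 453.9 on the arrays labelled Lrp5-/- and 772, 634.2 and 675.5 on WT arrays. The mutant values were tightly grouped below all WT values, and here WT replicate 1 was the highest array (log2 fold change -0.56, SE 0.10, adjusted p = 0.0796, limma). On a second Egfl7 probe the log2 fold change was -0.29 (adjusted p = 0.830, limma). Pglyrp1, a peptidoglycan recognition protein that is also a product of neutrophils, gave 52.1, 49.6 and 49.1 on the arrays labelled Lrp5-/- and 70.7, 70.9 and 71.8 on WT arrays. It was undetected on all 3 mutant arrays and at least 1.17-fold higher on WT arrays, with an adjusted p of 0.0648 (limma).

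Among the 7 expressed cytoplasmic signalling genes the spread was wide, from Arap3 at -0.80 to Shank3 at 0.05, with a median of -0.36. Arap3, a phosphoinositide-regulated GTPase-activating protein for Arf6 and RhoA that is needed for sprouting in mice, gave 127.4, 132.4 and 126.2 on the arrays labelled Lrp5-/- and 216, 219.5 and 238.5 on WT arrays. Both groups were tight, and the fall was 1.74-fold (log2 fold change -0.80, SE 0.09, adjusted p = 0.00381, limma). The Arap3 call was held in 5 of the 6 fits that left out 1 array. Rhoj, a small GTPase of endothelial migration, gave 146.5, 137.5 and 158.1 on the arrays labelled Lrp5-/- and 205.9, 233.9 and 204.4 on WT arrays, with a log2 fold change of -0.54 and an adjusted p of 0.0856 (limma). Rasip1, a Ras-interacting protein needed to open the vessel lumen, gave 91.7, 81.4 and 94.1 against 112.2, 112.2 and 117.7 on WT arrays. Neither Rhoj nor Rasip1 overlapped between groups, and the log2 fold change of Rasip1 was -0.36 with an adjusted p of 0.449 (limma).

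The nitric oxide system was represented by the endothelial synthase Nos3 and by Nostrin, the adaptor that traffics this enzyme from the membrane. Nostrin gave 62.7, 57.5 and 55.5 on the arrays labelled Lrp5-/- and 79.3, 94.3 and 89.5 on WT arrays. Only 1 of the 3 mutant values was detected above background, against all WT values (log2 fold change -0.58, SE 0.10, adjusted p = 0.0678, limma). Nos3 gave 114.8, 118.2 and 107.1 on the arrays labelled Lrp5-/- and 142.3, 141.1 and 141.8 on WT arrays, so that the log2 fold change was -0.32 with an adjusted p of 0.532 (limma). The WT values of Nos3 were almost equal and all above the mutant ones on this probe, but 2 other expressed Nos3 probes had log2 fold changes of only -0.13 and -0.14. Arhgef15, a guanine nucleotide exchange factor of endothelium, had values of both groups overlapping at a log2 fold change of -0.02. Shank3, best known as a scaffold of synapses, gave 97.4, 104.8 and 107.1 on the arrays labelled Lrp5-/- and 98.9, 100 and 100.4 on WT arrays. The WT values of Shank3 lay within the mutant range (log2 fold change 0.05, SE 0.09, limma).

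Junction and adhesion genes, the classical markers of endothelium, had smaller differences, with 6 expressed genes at a median of -0.24 on the log2 scale, of which 1 passed the 1.3-fold threshold. Pecam1, which encodes the platelet endothelial adhesion molecule CD31, gave 100.5, 96 and 90.1 on the arrays labelled Lrp5-/- and 110.2, 117.4 and 116.9 on WT arrays (log2 fold change -0.27, SE 0.09, adjusted p = 0.833, limma). Cdh5, which encodes VE-cadherin of the adherens junction, gave 69.7, 67.2 and 70.4 against 75.9, 77.6 and 86.8 on WT arrays (log2 fold change -0.21, SE 0.09, adjusted p = 0.987, limma). Both genes had every mutant array below every WT array, and both missed the adjusted threshold, as did a second Cdh5 probe at a log2 fold change of -0.09. Icam2, an intercellular adhesion molecule present on resting endothelium, gave 85.1, 75.6 and 72 on the arrays labelled Lrp5-/- and 101.1, 90.5 and 114.3 on WT arrays. Its log2 fold change was -0.39 with an adjusted p of 0.618 (limma), and the groups did not overlap.

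Podxl, the sialomucin podocalyxin, ranged from 371.5 to 422.3 on the arrays labelled Lrp5-/- and from 395.3 to 620.4 on WT arrays, with a log2 fold change of -0.30. Mcam, the adhesion molecule CD146 that pericytes also carry, ranged from 160 to 182.6 and from 166.3 to 201 (log2 fold change -0.07). Both genes overlapped between groups, and 2 other expressed Mcam probes had small positive log2 fold changes of 0.04 and 0.12. Emcn, the sialomucin endomucin of capillary and venous endothelium, was the one gene with every mutant array above every WT array. It gave 179.3, 179.5 and 145.4 on the arrays labelled Lrp5-/- and 141.1, 141.9 and 138.2 on WT arrays. Replicate 3 of the arrays labelled Lrp5-/- was only slightly above the WT arrays, and the log2 fold change of 0.25 (SE 0.10, unadjusted p = 0.0314) did not pass after adjustment (adjusted p = 0.982, limma). Cd34, a sialomucin related to podocalyxin, was not expressed on the detection rule.

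The 2 remaining expressed membrane proteins were Itm2a, a type II membrane protein, and Tmem204, a junction-associated claudin-like protein. Itm2a gave 470.5, 477.1 and 587.9 on the arrays labelled Lrp5-/- and 722.6, 570.5 and 702.3 on WT arrays. Replicate 3 of the arrays labelled Lrp5-/- exceeded WT replicate 2, and the log2 fold change was -0.38 (adjusted p = 0.816, limma). Tmem204 gave 120.1, 123.8 and 114.1 against 127.8, 139.4 and 168.4 on WT arrays, without overlap (log2 fold change -0.27, adjusted p = 0.982, limma).

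**Figure D4:**
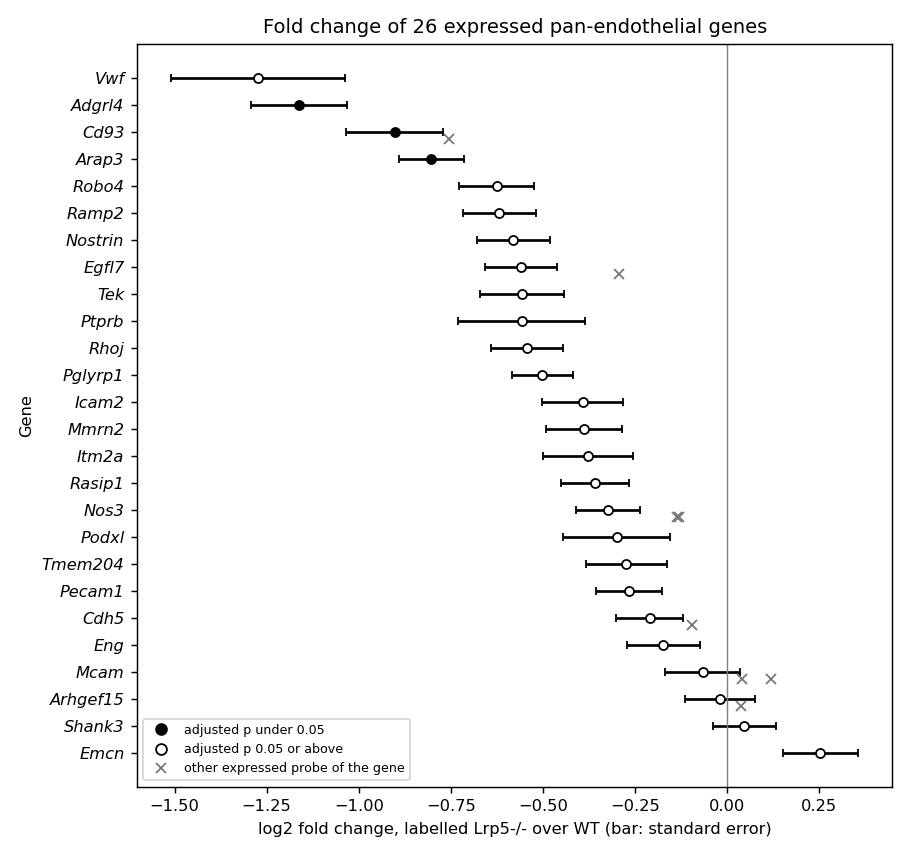
Log2 fold change (retinas labelled Lrp5-/- over WT, x axis) with its standard error for the 26 expressed genes (y axis), ordered from the most negative. Filled points (Adgrl4, Cd93 and Arap3) have an adjusted p under 0.05 and open points do not. Grey crosses are other expressed probes of the same gene. The crosses lie nearer to 0 for Cd93, Egfl7, Nos3 and Cdh5, and on the other side of 0 for Mcam and Arhgef15.

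Of the genes with a probe, 10 were not expressed on the detection rule and entered no test, namely Cd34, Tie1, S1pr1, Calcrl, Clec14a, Sh2d3c, Ushbp1, Ecscr, Myct1 and Ly6c1. Ly6c1, a surface antigen of brain endothelium and monocytes in mice, was detected on 2 WT arrays only, at 65, 74.2 and 73.4 on WT arrays and 55, 52.2 and 53 on the arrays labelled Lrp5-/-. Ly6c1 therefore lay close to background throughout, and no fold is given. Several expressed probes were present for 6 genes (Cdh5, Mcam, Cd93, Egfl7, Nos3 and Arhgef15). Taking the second probe of these genes left 22 of the 26 log2 fold changes negative.

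Individual arrays moved the adjusted calls. WT replicate 1, the dimmest array, was the lowest WT array for 18 of the 26 genes and the highest for 5 (Podxl, Ramp2, Egfl7, Nos3 and Itm2a). Without it 11 genes fell at an adjusted p under 0.05 (Adgrl4, Arap3, Cd93, Vwf, Tek, Robo4, Ramp2, Egfl7, Pglyrp1, Nostrin and Rhoj). Without replicate 3 of the arrays labelled Lrp5-/-, which was the lowest mutant array for 16 genes, 0 genes passed, with adjusted p-values of 0.0603 for Adgrl4, 0.0513 for Arap3 and 0.268 for Cd93. In that fit 14 genes were lower at an unadjusted p under 0.05 with at least 1.3-fold, and the median was -0.44. The median over the 26 genes stayed between -0.48 and -0.34 in all 6 fits that left out 1 array, while 0 genes passed when the arrays were scaled to a common median or left without normalization.

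Ligands and partners of these genes had a median near that of all probes. Of 30 listed, 17 were expressed, 0 fell and 0 rose at an adjusted p under 0.05, and the median log2 fold change was -0.01. The one gene past the unadjusted threshold with 1.3-fold was Adm, the peptide adrenomedullin that signals through Ramp2 and Calcrl, at 68.4, 71.2 and 76.2 on the arrays labelled Lrp5-/- and 55.2, 52.5 and 49.5 on WT arrays. Adm was undetected on all WT arrays and at least 1.14-fold higher on the arrays labelled Lrp5-/-, with an adjusted p of 0.141 (limma). Adm passed the detection rule through the mutant arrays alone, so its direction was fixed by that rule. Ramp3, the other accessory protein of that receptor, had 238.9 to 267.2 on the arrays labelled Lrp5-/- and 224.4 to 305.2 on WT arrays. For Angpt2, the context-dependent Tie2 ligand, the log2 fold change was 0.02 (adjusted p = 0.994, limma). Radil, a Rasip1 partner, and Unc5b, a partner of Robo4, had log2 fold changes of -0.13 and 0.16 with an adjusted p of 0.987 each (limma).

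Endothelial transcription factors and VEGF receptors also mark endothelium but were not members. Of 25 listed 14 were expressed, their median log2 fold change was -0.17, with 2 lower and 0 higher at an adjusted p under 0.05. At an unadjusted p under 0.05 with at least 1.3-fold, 4 were lower and 0 higher, against 0.569% and 0.261% of all tested probes. In 8 every mutant array lay below every WT array, and in 0 every such array lay above. The shares of all tested probes were 4.96% and 5.74%. Foxq1, a forkhead factor, gave 46.8, 46.7 and 49.1 on the arrays labelled Lrp5-/- and 105.3, 118.9 and 122.8 on WT arrays. It was undetected on the mutant arrays and at least 1.90-fold higher on WT arrays (adjusted p = 0.000136, limma). Foxq1, 1 of the 2 called genes, passed the detection rule through the WT arrays alone, so its direction was fixed by that rule. Ets1, an ETS family factor of endothelium and lymphocytes, gave 165.4, 152.3 and 140 against 221.6, 236.1 and 258.2 on WT arrays (log2 fold change -0.65, SE 0.10, adjusted p = 0.0395, limma). For Sox18, an endothelial SOX factor, the log2 fold change was -0.46 (adjusted p = 0.155, limma). Kdr and Flt1, the main VEGF receptors, had log2 fold changes of -0.10 and -0.32 with an adjusted p of 0.987 each (limma).

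Markers of other cells in the preparation were read on the same arrays, and 0 of them passed an adjusted p of 0.05, with 3 lower and 1 higher at an unadjusted p under 0.05 (limma). The mural cells that wrap vessels had 7 of 13 markers expressed, with a median of -0.12 and summed signals of 1090.8 to 1200.9 on the arrays labelled Lrp5-/- and 1010 to 1243.9 on WT arrays. Pdgfrb, the defining receptor of pericytes, was not expressed on the detection rule, and the 7 expressed markers had 4 negative and 3 positive log2 fold changes, from -0.28 to 0.42. Acta2, smooth muscle actin, gave 418.5, 426.1 and 348.1 on the arrays labelled Lrp5-/- and 302.3, 272.8 and 312.5 on WT arrays. Every mutant array of Acta2 lay above every WT array (log2 fold change 0.42, unadjusted p = 0.00207, adjusted p = 0.401, limma). Abcc9, a channel subunit of pericytes, had every mutant array below every WT array. The log2 fold change of Abcc9 was -0.20 (unadjusted p = 0.0397, adjusted p = 0.987, limma). Macrophages and microglia had 9 of 13 expressed with a median of -0.05 and sums of 1103 to 1160.9 against 1104.8 to 1289.2, and neural retina had 7 of 9 with a median of -0.03 and sums of 32817.2 to 34858.9 against 30340 to 41791.1. All these sums overlapped between groups. Most of the neural sum came from Crx (means 15168.4 mutant, 15578 WT) and Nrl (14558.2 mutant, 16084.8 WT). Glul, also in the neural list, had a log2 fold change of -0.34 (unadjusted p = 0.0496, adjusted p = 0.987, limma), with overlapping groups.

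Retinal astrocytes, the template on which retinal vessels grow, had 4 of 6 markers expressed, a median of -0.10, and summed signals of 664.3 to 744 on the arrays labelled Lrp5-/- and 798.8 to 852.7 on WT arrays, which did not overlap. Most of that difference came from 1 marker, Pdgfra, with 490.6, 426.4 and 475.9 on the arrays labelled Lrp5-/- and 610.1, 549.9 and 534.7 on WT arrays (log2 fold change -0.28, unadjusted p = 0.0137, adjusted p = 0.847, limma), while Gfap, Aqp4 and Aldh1l1 overlapped between groups. Pigment epithelium and melanocyte markers (5 of 10 expressed, median -0.46, sums 1480.9 to 3193 against 1425.3 to 3929.4) and lens markers (8 of 11, median 0.22, sums 512.8 to 2304.2 against 489.3 to 1837.6) varied widely within both groups and overlapped between them. Red blood cell markers (3 of 5, median -0.11, sums 2093.4 to 2942.2 against 2629.9 to 3496.2) and lymphatic markers (4 of 5, median -0.15, sums 5333.3 to 5856.8 against 5756.2 to 6509.8) overlapped. Nearly all of the lymphatic sum came from Prox1 (means 2306.7 mutant, 2584.9 WT) and Pdpn (3035 mutant, 3359.6 WT), with Ccl21a at 109.2 and 128.6. Whether that signal came from lymphatic cells was not tested. The part of these cells in the lower endothelial signals was not tested.

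**Figure D5:**
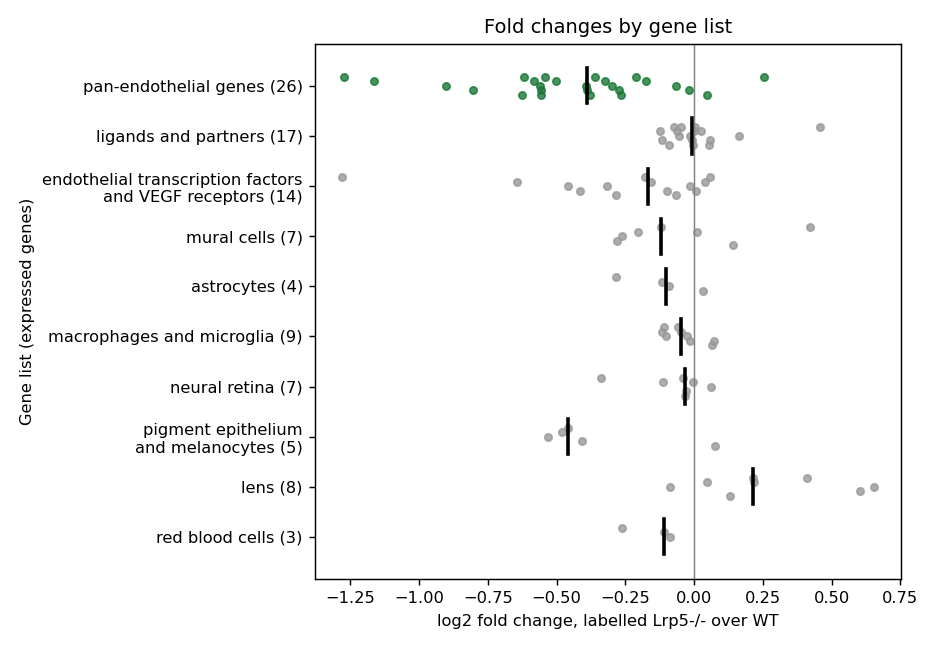
Log2 fold change (retinas labelled Lrp5-/- over WT, x axis) of each expressed gene (points) in 10 gene lists (y axis, number of genes in brackets), with the list median as a black bar. The pan-endothelial genes in green have a median of -0.39, against -0.01 for ligands and partners, -0.17 for endothelial transcription factors and VEGF receptors and -0.03 for neural retina.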

How the data were processed

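The authors labelled RNA of 1 mouse for each array (the study calls the samples biological replicates), hybridised it to Illumina Mouse-WG6 BeadChips and used Bead Studio. The deposited intensity of each probe is on a linear scale, normalized between arrays by the authors with the rank invariant method and without background subtraction, and a non-normalized intensity table was deposited as well. A detection p-value was also deposited, which compares a probe with negative control beads. Of 45281 probes, 34885 have 1 gene symbol, 18 several and 10378 are unnamed here.

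Signals were floored at 16 (1 value), log2 was taken, and the 20721 probes with a detection p under 0.05 on at least 3 of 6 arrays entered a linear model without a block (limma 3.58.1, R 4.3.3, moderated by eBayes, Benjamini-Hochberg over these probes). The number of arrays limits the precision. The fit was tested on simulated data. The members, roles and context lists were chosen with earlier results of these data known. Every array is given for members past p under 0.05, those of the study, those with a positive change and those of the Tie, adrenomedullin receptor, Cd93 and nitric oxide systems, other members by range. Of the context lists, genes past an adjusted p of 0.05 and up to 3 with the smallest p were named, and Ramp3, Angpt2, Kdr, Flt1, Crx, Pdgfrb, Pdgfra, Gfap, Aqp4, Aldh1l1, Abcc9 and Acta2 were named after their values were seen. Alternatives varied the normalization, floor, offset, filter, test, block, arrays and probe. Omission of the 7 genes of the study's tables was chosen after seeing the data. Motifs were searched in RefSeq start regions with Python 3.11.15.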

Additional observations from a re-analysis of the deposited data

How the results depend on the processing

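The median of the 26 genes was negative under every alternative run. It was -0.60 with normexp background correction, -0.27 with 50 added to each signal, and -0.48 to -0.34 in the fits that left out 1 array. With no filter on detection the median of all 36 genes with a probe was -0.31. Genes lower at an adjusted p under 0.05 numbered 3 in the report and 5 with quantile normalization. They numbered 4 with normexp background correction (Adgrl4, Arap3, Pglyrp1 and Nostrin), 6 with an intensity trend and 13 with array weights. With 50 added there was 1, and there were 0 with a plain t-test, with median scaling and with no normalization. Without the members of the study's tables there was 1, and the fits that left out 1 array gave 0 to 11. Genes lower at p under 0.05 with 1.3-fold numbered 14, and 6 with median scaling, 5 with no normalization, 8 with 50 added and 7 without the study's members. Genes with every mutant array below every WT array numbered 18, and 5 with median scaling, 5 with no normalization and 11 without the study's members. The shares of all tested probes at these thresholds are given only for the settings of the report. Over all tested probes the plain t-test called 0 lower and 0 higher after adjustment, where limma called 18 and 6. For the arrays the study used SAM, not this t-test. Array weights gave 74 and 24 over all probes, omission of WT replicate 1 gave 62 and 23, and 50 added gave 9 and 2. The cause of these differences was not tested.

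Median scaling moved the median of all probes to 0.12, and relative to it the members lay at -0.45. Mcam (-0.0666) changed sign with median scaling (0.0605) and on its second probe (0.0413), and ranged from -0.133 to 0.0032 in the fits that left out 1 array. Arhgef15 (-0.0202) changed sign with median scaling (0.158), no normalization (0.0767) and on its second probe (0.0369), and ranged from -0.0725 to 0.0430 in those fits. Same-numbered arrays did not deviate together (correlations of -0.21, -0.15 and -0.28), and the fit of the report used no block. These correlations cannot show whether the samples were paired by litter or handling. With the replicate number as a block 2 members fell (Adgrl4 and Arap3). With normexp background correction the log2 fold change of Vwf was -1.98. The study's SAM analysis was not run. Background left in the signal limits the fold changes of genes near it, and Vwf, Pglyrp1, Nostrin and Ptprb were undetected on some or all mutant arrays.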
